A study of Mus musculus with 6 samples.

Results

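The histone genes of 6 liver tumors from 2 mice were examined as a family. Members were the protein-coding genes whose symbols carry a histone stem (H1f with a number, H2a or H2b with a further letter, H3c, H3f, H4c or H4f), and 98 of the 35683 genes with a value met that rule. Of these, 62 are numbered with a c (such as *H2ac19*), the form given to genes of the histone clusters, and 36 are other members, among them the linker histones (H1f genes), the replacement variants *H3f3a*, *H3f3b*, *H2az1*, *H2az2*, *H2ax* and *H2aj*, and a set of testis-type genes. The c-numbered genes are called clustered and the others variant here, although *H1f1* to *H1f6* lie inside the same clusters and are variant only by the naming rule.

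All 6 tumors came from CMRtdT mice, which carry 1 copy of a *Ctnnb1* allele with a floxed exon 3, the MUP-uPA transgene and a *ROSA26* LSL-tdTomato reporter. Cre removes the exon and leaves a stable β-catenin, MUP-uPA makes hepatocytes produce urokinase and so sustains liver injury, and the reporter marks recombined cells. Cre was given by tail vein as AAV8-TBG-Cre, whose TBG promoter acts in hepatocytes, to males on a C57BL/6 background aged 8 weeks that had eaten high-fat diet since 6 weeks of age, and tumors were excised 6.5 months after the virus. Each mouse gave 3 tumors, both mice were treated alike, and no liver without a tumor was analysed here. The tumors of 1 mouse share an animal, so a comparison of mouse 2 with mouse 1 sets 2 animals against each other with the spread between tumors of 1 animal as its error, and no treatment differs between them.

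Nucleosomes are built on an octamer of the core histones H2A, H2B, H3 and H4, and the linker histone H1 binds the DNA that enters and leaves. Most core histone is made in S phase from the clustered, replication-dependent genes, whose mRNAs usually end in a conserved stem-loop in place of a poly A tail. Replacement variants such as H3.3 and H2A.Z are encoded by genes outside the clusters, mostly with introns and poly A tails, and are made and deposited throughout the cell cycle, which makes them the main supply in tissues that divide little, such as the adult liver. The library protocol in the labels is poly A enrichment, which the study's published methods also state, although the series' design text speaks of total RNA. Under that protocol, a clustered gene's value here is its RNA that came through that step and not its whole transcript pool.

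Tumors are written by mouse and number below, so that M1T1 is the mouse 1 tumor with number 1. M1T1 stood apart from the other 5 libraries. Its 7 hepatocyte markers summed to 1277 TPM (transcript abundance per length, scaled to a fixed total in each library), against 20579 to 39263 in the others, so the labelled tissue was weakly marked there, and its markers of T and NK, B and plasma, macrophage, neutrophil and endothelial cells were also at their lowest sums. Cholangiocyte markers were at their highest sum there, 44.2 TPM against 4.61 to 36.3, with 4 of 5 genes highest. Most of that sum was *Spp1*, at 33 TPM against 1.4 to 30.4 TPM, and *Sox9* stood at 0.715 TPM against up to 3.27 TPM. In the TMM-scaled counts explained below, 2 of the 5 were highest in M1T1. The S phase and proliferation list of M1T1 summed to 958.8 TPM against 150.5 to 176.6. Libraries held 19130532 to 27681766 estimated counts. Mitochondrial genes took 6.85 to 8.34% of estimated counts in mouse 1 and 12.9 to 18.4% in mouse 2. Each result that rests on M1T1 is given with and without it.

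The stem-loop was looked for in the transcript with most counts of each member, where the reference sequence had the length given in the tables. It was found as 6 paired bases around a loop of 4 in 40 of 60 clustered members and in 6 of 32 variant members. The search also required set bases at some positions of the stem and loop. The likeness of the forms found therefore follows in part from the search, and more diverged forms would count as not found. The sequences are shown because they are the element typical of the replication-dependent class. The commonest form stood in 25 members, among them *H2ac19*, the clustered gene of the highest mean, and *H1f2*; the next in 7, among them *H4c8*. Of the rarer forms, that of *H4c9* stood in 2 members and that of *H2ax* in 1; the others are not shown. *H2bc4*, *H2az1* and the H3.3 genes could not be searched, since the reference lengths of their main transcripts differed. Capitals mark the loop, and T stands for U.
H2ac19 and H1f2: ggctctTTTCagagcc
H4c8: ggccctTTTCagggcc
H4c9: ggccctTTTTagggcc
H2ax: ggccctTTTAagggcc
What followed the stem-loop differed between genes. The annotated transcript of *H2ac19* runs 35 bases past it, with no poly A signal (AATAAA or ATTAAA) in its last 40 bases, whereas those of *H1f2*, *H2ax* and *H2ac25* run 840, 822 and 1643 bases past it and carry the signal. *H4c8*, with 46 bases, and *H2bc27*, with 169, carry it as well. Among the 60 clustered members with a sequence, 6 of the 15 with a signal averaged 1 TPM or more, and so did 6 of the 45 without one. The highest clustered mean, that of *H2ac19* at 244.6 TPM, was in the group without a signal, whose median was 0.252 TPM against 0.925 TPM with one.

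Promoter windows, 250 bases before to 50 after the start in RefSeq on GRCm38.p6, were listed for 85 members. The TATA form TATAAA stood, on either strand, in 56.6% of 53 clustered windows and 24.2% of 33 variant windows, against 13.6% of 32851 windows of all genes. CCAAT stood in 84.9% and 54.5%, against 37.4%. The octamer ATTTGCAT, which POU2F1 reads in H2B promoters, stood in 24.5% and 3.03%, against 1.74%. Members at 1 TPM or more on average had 9 clustered and 8 variant windows, and there the class order held for TATAAA alone, at 55.6% and 12.5%. CCAAT stood in 55.6% and 75% of those windows, and the octamer in 11.1% and 12.5%. An E2F form, GCGGGAAA, was in 1.89% of clustered and 0% of variant windows against 1.07%, and a TCF/LEF form, CTTTGAT, in 5.66% and 3.03% against 3.73%; none of these motifs contains another, and a match is a description of the window alone. The 150 bases before the start of 3 genes that were higher in mouse 2 than in M1T2 and M1T3 are given below, 5′ to 3′ on the gene's strand, with CCAAT or its reverse complement in capitals; the window of *H4c8* held none of the 5 motifs.
H2ac19, chr3:96240375-96240524, minus strand: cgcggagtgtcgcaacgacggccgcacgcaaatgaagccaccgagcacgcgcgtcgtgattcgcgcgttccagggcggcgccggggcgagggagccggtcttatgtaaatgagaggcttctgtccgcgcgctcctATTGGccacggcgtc
H1f2, chr13:23738657-23738806, plus strand: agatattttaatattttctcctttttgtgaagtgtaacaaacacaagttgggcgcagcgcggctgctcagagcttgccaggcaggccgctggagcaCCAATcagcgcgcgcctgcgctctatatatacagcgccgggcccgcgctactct
H4c8, chr13:23530894-23531043, plus strand: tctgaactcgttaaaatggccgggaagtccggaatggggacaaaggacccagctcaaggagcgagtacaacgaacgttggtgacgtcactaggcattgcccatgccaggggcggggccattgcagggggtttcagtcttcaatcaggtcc
*H2ac19* has 1 CCAAT match in the stretch shown, on the opposite strand, and another after its start. *H1f2* has 1, and neither gene holds TATAAA in its window.

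Few members gave appreciable mRNA. An average of 1 TPM or more was reached by 13 of 62 clustered and 9 of 36 variant members, and the median of the members' means was 0.293 TPM in the clustered class and 0 in the variant class. The 23 members at 0 counts in every tumor were 4 clustered genes (*H2ac1*, *H2ac24*, *H2bc22* and *H3c13*) and 19 variant genes, mostly testis-type H2A genes of the H2ab and H2al groups, with *H1f7* and *H1f9*. With 0 counts observed, up to 3 counts in a library remain possible by counting error alone. The male germ cell markers *Prm1*, *Prm2* and *Tnp1* were also at 0 in all 6 tumors. Of 11 pseudogenes with histone-like symbols, which were not members, none passed 2.65 TPM in any tumor.

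The clustered genes gave 15.7, 24.3 and 25.6% of histone TPM in M1T1, M1T2 and M1T3, and 39.3, 38.5 and 50.1% in those of mouse 2, a mean of 32.2% ± 12.6 (SD, n = 6 tumors) or 35.6% ± 10.7 without M1T1. All tumors of mouse 2 were above all of mouse 1. The same order came from different sums: clustered TPM was 707.5, 271.7 and 289.2 in mouse 1 and 494.3, 571.3 and 953.6 in mouse 2, while variant TPM was 3805, 848.1 and 839.9 and then 763.5, 913.5 and 948.9. M1T1 held the lowest clustered share and by far the highest variant sum, and its clustered sum was second only to that of M2T3. Histone mRNA in all was 0.453% of TPM in M1T1 and 0.112 to 0.191% in the other 5. In bulk tumors, fewer cells of a type and less RNA per cell cannot be told apart.

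**Figure D1:**
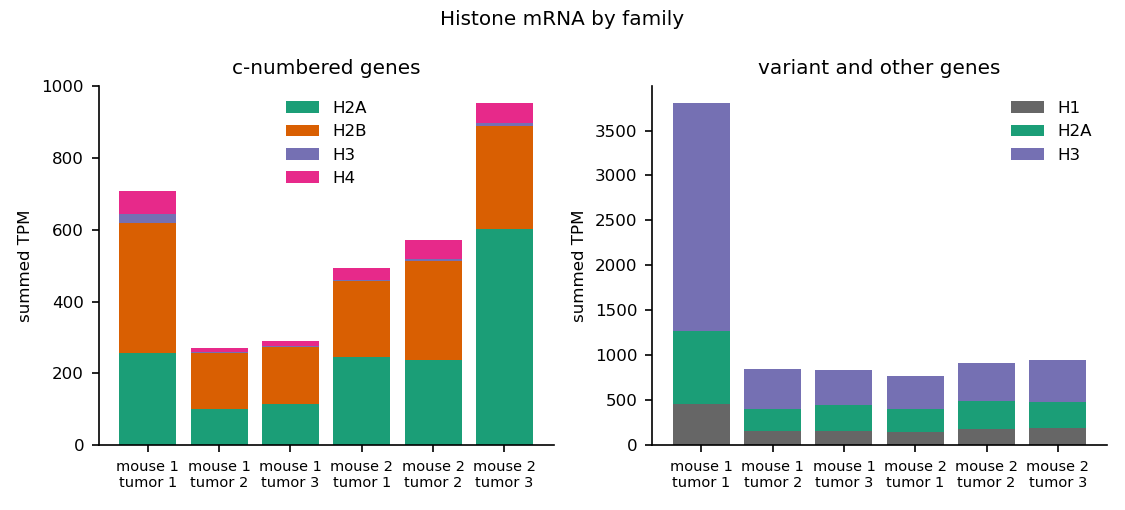
Summed TPM of clustered (left) and variant (right) histone genes in each tumor, as bars from 0 stacked by family; the 2 panels have different scales. The variant sum was 3805 TPM in M1T1 and 763.5 to 948.9 TPM in the others, while the clustered sum was highest, at 953.6 TPM, in M2T3.

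The clustered sum was carried by 2 genes. *H2ac19* and *H2bc4* together made 50% of it in M1T1 and 87.7 to 91.8% in the other 5 tumors, and in those only 9 to 13 of 62 clustered genes reached 1 TPM, against 33 in M1T1. In the H3 family the balance was the reverse: *H3f3a* and *H3f3b*, both coding for H3.3, gave 98.5 to 99.6% of H3 TPM in every tumor. The 13 H4 members are all clustered, since H4 has no variant gene under the rule, and they summed to 63.4, 11.9 and 13.1 TPM in mouse 1 and 33.9, 53.1 and 56.2 TPM in mouse 2. H4 mRNA was thus at most 63.4 TPM in these libraries although the nucleosome holds as much H4 as H3.

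**Figure D2:**
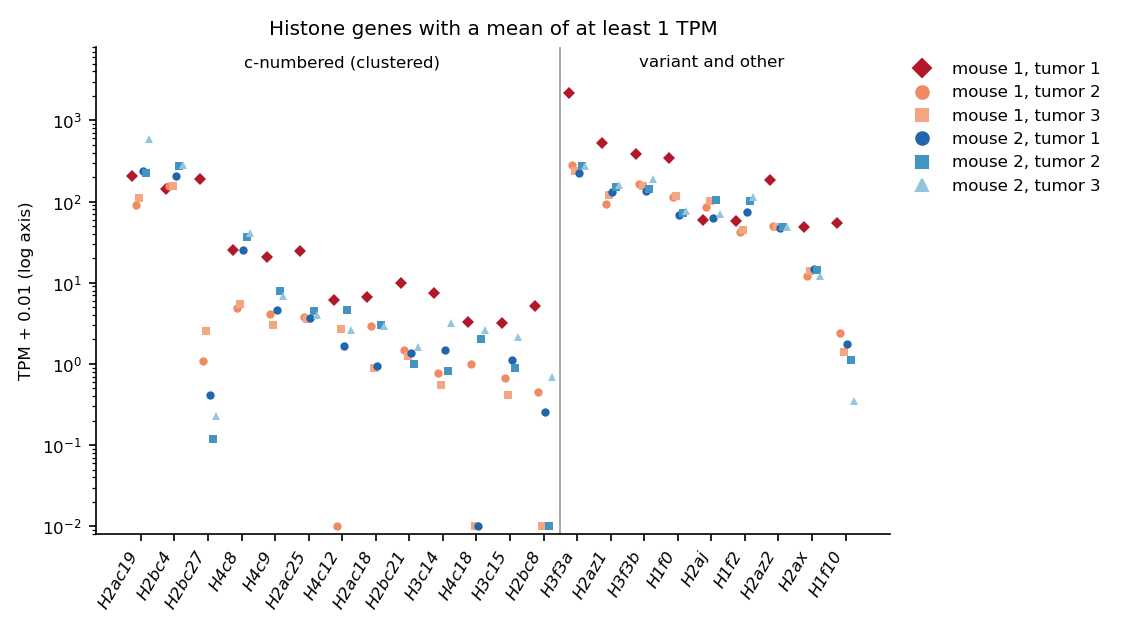
TPM of the 22 histone genes at 1 TPM or more on average, plus 0.01 so that zeros show at the foot of the log axis; each symbol is 1 tumor. Red diamonds, M1T1, lie highest for 17 of the 22 genes but not for H2ac19, H2bc4, H1f2, H4c8 and H2aj.

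Among linker histones, *H1f0*, the H1 of quiescent and differentiated cells, and *H1f2*, a cluster gene, made up most of the mRNA. *H1f0* stood at 342.3, 115 and 115.4 TPM in mouse 1 and at 68.3, 71.7 and 76 TPM in mouse 2. *H1f2* stood at 57, 42.2 and 44.1 TPM in mouse 1 and at 73.6, 102.3 and 115.1 TPM in mouse 2. Neither gene's TPM overlapped between the mice, and the genes ran in opposite directions. The ratio of *H1f2* to *H1f0* was thus 0.167 to 0.383 in mouse 1 and 1.08 to 1.52 in mouse 2. Of 12518 genes at 1 TPM or more on average, 5240 were lower in every tumor of mouse 2 and 219 were higher. A pattern like that of *H1f0* was therefore common, and its difference depended on the scale, as described below. *H1f10*, another replication-independent linker histone, stood at 53.9 TPM in M1T1 and at 2.39, 1.4, 1.76, 1.12 and 0.337 TPM in the others. The remaining H1 genes of the clusters, *H1f1* and *H1f3* to *H1f6*, had means of 0.00971 to 0.588 TPM.

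Among H2A genes the highest mean belonged to *H2ac19*, in the cluster on chromosome 3. It stood at 209.2, 91.4 and 109.9 TPM in mouse 1 and at 239.6, 226.5 and 591 TPM in mouse 2, so that every tumor of mouse 2 was above every tumor of mouse 1 and M2T3 was well above the rest. All of its 31-base stretches also occur in other genes, and 89.6% of those of its neighbor *H2ac18* do, so its reads can be split between near-identical genes; the sum of the pair was 215.8, 94.3 and 110.8 TPM in mouse 1 and 240.5, 229.5 and 593.9 TPM in mouse 2, and did not overlap either.
*H2az1* and *H2az2* encode H2A.Z, the variant found around transcription starts. *H2az1* stood at 526.9, 93.8 and 120 TPM in mouse 1 and at 131.8, 149 and 157.8 TPM in mouse 2, and *H2az2* at 182.5, 50 and 49.2 and then 47.8, 48 and 48.7 TPM. Outside M1T1, *H2az2* was nearly level over 5 tumors while *H2az1* was higher in mouse 2. *H2ax*, whose product is phosphorylated at DNA breaks, stood at 48 TPM in M1T1 and at 12.2 to 14.9 TPM elsewhere. *H2aj*, a replication-independent H2A, was the exception among variants: at 58.6 TPM it was lowest in M1T1, and it ranged from 62.5 to 103.2 TPM in the others without separating the mice. Of the other clustered H2A genes, *H2ac25* stood at 24.9 TPM in M1T1 and at 3.57 to 4.49 TPM elsewhere, and *H2ac18* at 6.59 and 0.877 to 2.99 TPM.

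H2B mRNA came from *H2bc4* in 5 tumors. *H2bc4*, in the histone cluster on chromosome 13, stood at 144.6, 153.9 and 154.5 TPM in mouse 1 and at 206.9, 274.7 and 284.4 TPM in mouse 2, again without overlap, and it alone was 97.1 to 98.9% of H2B TPM in the tumors other than M1T1. In that tumor it was 39.8%, and *H2bc27*, on chromosome 11, was 52.5%. *H2bc27* stood at 190.9 TPM there and at 1.07, 2.56, 0.403, 0.11 and 0.217 TPM in the other 5, which is 1600 estimated counts against 9, 26, 4, 1 and 2, and the widest range of any member at 1 TPM or more on average and no tumor at 0. *H2ac25* lies on chromosome 11 too, as does *H2bc26*, whose mean was 0.202 TPM. *H2bc21* stood at 9.87 TPM in M1T1 and at 0.998 to 1.6 TPM elsewhere, and *H2bc8* at 5.2 TPM and at 0 to 0.681 TPM.

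Among H3 genes, *H3f3a* stood at 2148 TPM in M1T1 and at 284.3, 238.2, 227.4, 277.2 and 274.4 TPM in the other 5. *H3f3b*, coding for the same protein, stood at 385.1 TPM and at 162.4, 155.8, 134.7, 144.3 and 191.5 TPM. Both were highest in M1T1 but by different amounts, so that the ratio of *H3f3a* to *H3f3b* was 5.58 there and 1.43 to 1.92 elsewhere. A 481-base transcript of *H3f3a* was given 139.7 TPM in that tumor and at most 1.72 TPM in any other, so its isoforms were not raised alike. The clustered *H3c14* and *H3c15*, beside *H2ac19* and *H2ac18* on chromosome 3, had means of 2.37 and 1.4 TPM.
*H4c8* led the H4 genes. It stood at 25.6, 4.83 and 5.54 TPM in mouse 1 and at 25.2, 36.1 and 41.4 TPM in mouse 2, so that M1T2 and M1T3 were low and M1T1 lay just above the lowest tumor of mouse 2. *H4c9* stood at 21 TPM in M1T1 and at 4.09, 3.01, 4.6, 7.97 and 6.76 TPM in the others. *H4c12* and *H4c18* rested on at most 13 estimated counts in any tumor, and their means of 2.95 and 1.47 TPM come from short annotated transcripts of 312 and 430 bases.

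Of the 13 clustered members at 1 TPM, 11 had GRCm38 coordinates and fell in 3 stretches; the other 2, *H2bc27* and *H2ac25*, had no position listed and are on chromosome 11 in GENCODE. On chromosome 3, 5 of the 10 clustered members within 50.3 kb (chr3:96219885-96270192) reached it, *H2bc21*, *H3c15*, *H2ac19*, *H2ac18* and *H3c14*. On chromosome 13, 3 of 26 in one stretch of 403.9 kb (chr13:23531044-23934913) and 3 of 21 in another of 327.9 kb (chr13:21715711-22043658) did. *H4c8*, *H2bc4* and *H1f2* all lie in the 403.9-kb stretch. A position was listed for 91 members.

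Most members showed 1 or both of 2 patterns across tumors, and *H2aj* showed neither. The first was a peak in M1T1, where 17 of 22 members at 1 TPM or more on average were highest; 62.6% of the 12518 genes at that level were highest there too. In counts scaled to library depth by TMM (trimmed mean of M-values, which centres the bulk of genes) 11 of 22 members and 39.9% of genes were. By Dixon's ratio on log2(TPM + 1), which divides the gap to the nearest tumor by the whole range, 1 tumor stood apart for 11 of 22 members, 7 of 9 variant and 4 of 13 clustered, and in each it was M1T1 and high; among all genes 38.8% had a tumor apart. Over the other 5 tumors no member at 1 TPM or more on average had one. The members' median ratio of M1T1 to the median of the others was 3.69, against 1.95 over all genes. The hepatocyte marker sum was lowest in the same tumor and the proliferation and cholangiocyte sums highest, and their part in the result was not tested.

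**Figure D3:**
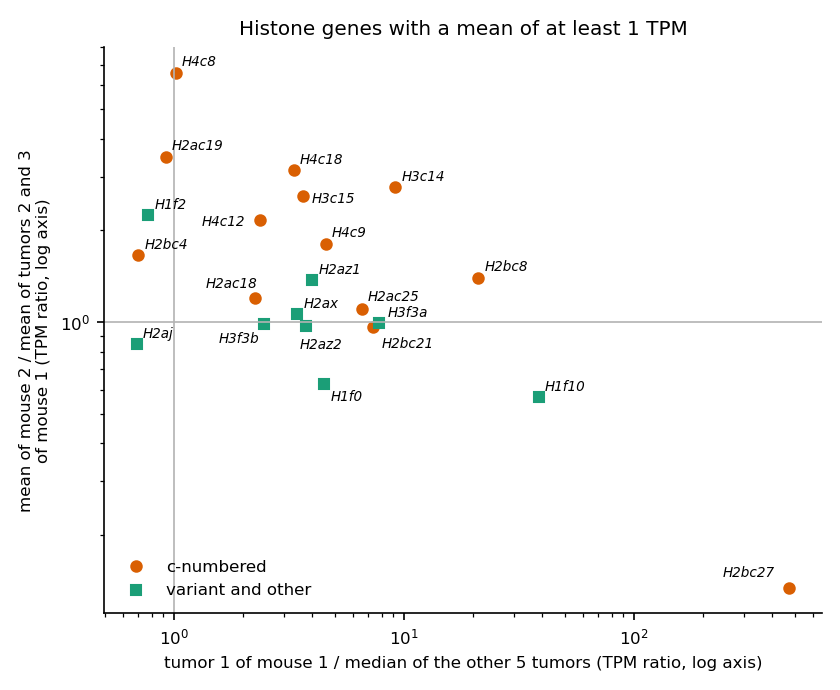
For each of the 22 histone genes at 1 TPM or more on average, the TPM ratio of M1T1 to the median of the other 5 tumors (horizontal, log axis) and of the mean of mouse 2 to the mean of M1T2 and M1T3 (vertical, log axis); gray lines mark a ratio of 1. H2bc27 lies at 473.7 on the horizontal axis and H4c8 at 6.6 on the vertical axis, and H2ac19, H2bc4, H1f2 and H4c8 lie near or left of the vertical line and above the horizontal line.

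The second pattern was a higher level in mouse 2. *H2ac19*, *H2bc4* and *H1f2* were higher in every tumor of mouse 2 than in any tumor of mouse 1, 3 of 22 members where 1.75% of all genes were. Against M1T2 and M1T3 alone, 8 of 22 members and 565 of 12518 genes were higher in every tumor of mouse 2. In the other direction *H1f0*, *H2az2* and *H2bc27* had lower TPM in every tumor of mouse 2, as had 5240 of 12518 genes, so that a lower TPM in mouse 2 was common among genes at large. For *H2az2* the direction turned with scaling and without M1T1, where TMM-scaled counts gave a log2 difference of 0.51 ± 0.13 (SE) toward mouse 2, with edgeR's adjusted p = 0.12.

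With edgeR's quasi-likelihood test over 6 tumors, 0 of 24 members tested and 0 of 13268 genes (0%) differed between the mice at an adjusted p under 0.05; 1449 genes and 4 members had an unadjusted p under it. The 4 were all higher in mouse 2: *H1f2* by 1.86 ± 0.33 (SE) on the log2 scale, *H2ac19* by 2.37 ± 0.56, *H2bc4* by 1.46 ± 0.35 and *H4c8* by 2.55 ± 0.64, each with an adjusted p of 0.412. limma-voom called 0 genes, 708 at an unadjusted p. DESeq2 called 202 genes and these 4 members, with adjusted p from 2.4e-05 for *H1f2* to 0.0138 for *H4c8*. Variants lay on both sides: *H3f3a* had a log2 difference of -0.71 ± 0.77 and an adjusted p of 0.755, *H2az1* of 0.22 ± 0.54 with 0.893, and *H1f0* of -0.49 ± 0.39 with 0.687.

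Without M1T1, leaving 2 tumors against 3, 1 of 23 members tested was called, *H4c8*, while 0.419% of 13374 genes were called as higher in mouse 2. *H4c8* was higher in mouse 2 by 3.34 ± 0.40 (SE) on the log2 scale, with an adjusted p of 0.0343. It rested on 23 and 32.2 estimated counts in M1T2 and M1T3, and 50% of its 31-base stretches also occur in other genes. *H1f2* (1.77 ± 0.29, adjusted p = 0.0534), *H2bc4* (1.28 ± 0.24, adjusted p = 0.0622) and *H2ac19* (2.48 ± 0.62, adjusted p = 0.107) kept their direction and did not pass edgeR's adjusted threshold. At an unadjusted p under 0.05, 17 of 23 members were higher in mouse 2 and none lower, where 10.9% of all genes were higher.
A gene can enter the test through its level in mouse 2 alone, and 6 of the 23 had fewer than 10 counts in M1T2 or M1T3 (*H1f3*, *H1f4*, *H2ac18*, *H2ac6*, *H2bc6* and *H4c11*). Among the 17 members with at least 10 counts in both, 12 were higher in mouse 2 at an unadjusted p under 0.05, against 10.7% of 13055 such genes. These 12 held clustered genes, such as *H4c9* (1.45 ± 0.37, adjusted p = 0.115), and variants, such as *H2az1* (0.99 ± 0.22, adjusted p = 0.0851), *H2ax* (0.69 ± 0.16, adjusted p = 0.0956) and *H3f3a* (0.61 ± 0.20, adjusted p = 0.175). The 5 others were *H1f0*, *H1f10*, *H2aj*, *H2bc21* and *H3f3b*. Over the 17 the median log2 difference was 0.69, and over the 13055 genes it was 0.01. In TPM the variants were closer to level: the mean of mouse 2 over that of M1T2 and M1T3 was 1.37 for *H2az1*, 1.06 for *H2ax*, 0.994 for *H3f3a* and 0.972 for *H2az2*, and with library size alone the log2 difference of *H3f3a* was 0.34.

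**Figure D4:**
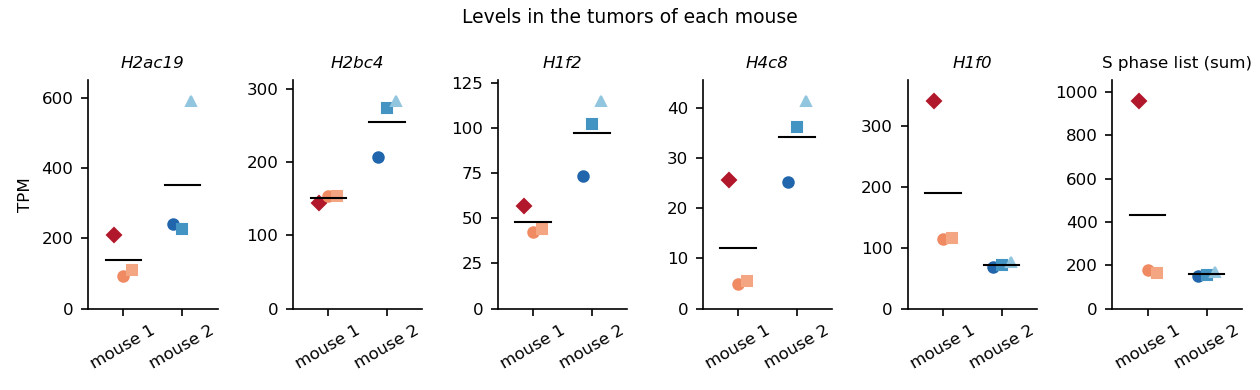
TPM of 5 histone genes and the summed TPM of the S phase and proliferation list in the tumors of mouse 1 (red shades) and mouse 2 (blue shades), each symbol 1 tumor and each line the mean of 3, on linear axes from 0. H2ac19, H2bc4 and H1f2 do not overlap between the mice, whereas M1T1, at 25.6 TPM, reaches the mouse 2 range of H4c8, and the list sum differs little outside M1T1.

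*H1f0* shows how far the scale matters. In TPM its mean was 72 in mouse 2 and 115.2 in M1T2 and M1T3, without overlap, but in counts without M1T1 its log2 difference was -0.38 with library size alone and, after TMM scaling, -0.11 ± 0.19, with edgeR's adjusted p = 0.792. The mean log2 TMM factors of the mice differed by 0.26 toward mouse 2 in that fit, and by 0.48 with all 6 tumors. The shift of a fitted difference varied by gene. Over 6 tumors, *H3f3a* went from -1.51 with library size alone to -0.71 with TMM, and *H2bc4* from 0.99 to 1.46. The erythroid markers (globins and their like) summed to 1579, 11077 and 10525 TPM in mouse 1 and 1952, 1021 and 4572 TPM in mouse 2, high in the same pair of tumors as *H1f0* but low in M1T1. The neutrophil markers summed to 1.74, 13.4 and 11.4 TPM in mouse 1 and 22.3, 13.1 and 27.3 TPM in mouse 2. These sums overlapped between the mice, whereas the TPM of *H2ac19* did not. The list was split: 2 of 6 genes were higher in every tumor of mouse 2 than in M1T2 and M1T3. *Csf3r* and *Mpo*, at low levels, were lower in every one, *Csf3r* at 0.429 to 0.786 TPM against 1.15 and 1.38 TPM. The part of the erythroid and neutrophil markers in these results was not tested.

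Genes that process, regulate or carry histones were mostly highest in M1T1 in TPM, as were 62.6% of all genes. The 17 genes of histone pre-mRNA processing, among them *Slbp*, which binds the stem-loop, summed to 491 TPM in M1T1 and to 134.5 to 239.5 TPM elsewhere, with 14 of 17 highest in that tumor (10 in TMM-scaled counts, where 39.9% of all genes were); *Slbp* itself stood at 26, 11.1 and 12.4 TPM in mouse 1 and at 7.2, 7.57 and 8.3 TPM in mouse 2. The 11 transcription regulators, among them *Npat*, the cyclin E-CDK2 target at histone loci, were all highest there (9 in TMM-scaled counts), with sums of 173.2 and 32.9 to 51.8 TPM. *Npat* stood at 9.87 TPM there and at 0.716 to 2 TPM elsewhere. Of the 28 chaperone and deposition genes 27 were highest in that tumor (20 in TMM-scaled counts), with sums of 2378 and 378.7 to 614.3 TPM, led by *Nap1l1*, an H2A-H2B chaperone, at 1187 and 47.4 to 117.3 TPM.
Variants outside the naming rule behaved alike. *Macroh2a1*, a large H2A variant, stood at 414.7 TPM in M1T1 and at 27.9 to 61.2 TPM elsewhere, and *Cenpa*, the centromeric H3, at 47.1 and 5.5 to 8.23 TPM. All 21 genes of the S phase and proliferation list, such as *Pcna* and *Top2a*, were highest in that tumor, and 19 were in TMM-scaled counts.
Between the mice, edgeR called 0 of 79 tested genes of these lists over 6 tumors, and DESeq2 and limma-voom called 0 as well. *E2f2*, *Ep400*, *Ipo4* and *Macroh2a2* had an unadjusted p under 0.05 with edgeR, as had 10.9% of all genes. Without M1T1 edgeR called 1 of the 79, where 168 of 13374 genes were called in either direction. The gene was *Ipo4*, an importin that carries histones. It was higher in mouse 2 by 1.99 ± 0.18 (SE) on the log2 scale, with edgeR's adjusted p of 0.0219. The list sums for S phase were 176.6 and 166.2 TPM in M1T2 and M1T3 and 150.5, 156.1 and 169.6 TPM in mouse 2. In TMM-scaled counts without M1T1 the list's median log2 difference was 0.18 toward mouse 2, against 0.01 over all genes. At edgeR's unadjusted p under 0.05, *Pcna* (0.82 ± 0.27) and *Cdk1* (0.65 ± 0.21) of its 21 genes were higher in mouse 2 and none was lower. Over all genes, 10.9% were higher in mouse 2 at that cutoff, so the list did not stand out by this count. Neither *Pcna* nor *Cdk1* passed the adjusted threshold. Whether proliferation has a part in the difference of *H4c8* or the other genes was not tested. In M1T1, where the S phase sum was highest, *H2ac19*, *H2bc4* and *H1f2* stood at 0.923, 0.699 and 0.775 times their median in the other 5 tumors, and *H4c8* at 1.02 times. Within mouse 1, *H2ac19* and *H4c8* were highest in M1T1, at 209.2 and 25.6 TPM against at most 109.9 and 5.54 TPM, *H1f2* was also highest there, and *H2bc4* was lowest.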

How the data were processed

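RNAseq of 6 excised tumors was used, 3 from each of 2 mice, with groups taken from the labels. Per the labels and the study's published methods, libraries were enriched for poly A, whereas the design text names total RNA. The authors' tables give, per Ensembl transcript, the length, effective length, estimated counts and TPM, in the layout of Salmon. Estimated counts were deposited without normalization, as fragments assigned to transcripts, and need not be whole. TPM was deposited as scaled by the authors for effective length and depth. GRCm38, BWA and Picard appear in the submitters' processing notes, and for the index no release is given in the sources used here.

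Both values were summed per gene after matching 114813 transcripts, without version, to GENCODE vM39 names; 1733 were unmatched, with 0.373 to 0.68% of counts. GENCODE sequences, used where lengths matched, gave stem-loops, poly A signals and shared 31-base stretches; coordinates and promoters came from RefSeq (GRCm38.p6). Of the 98 members, 7 had no position there. Sums of estimated counts were rounded and tested with edgeR 4.0.16 (TMM, filterByExpr, quasi-likelihood test, two-sided, Benjamini-Hochberg over all genes, threshold 0.05), after a test on simulated data. DESeq2 1.42.0, limma 3.58.1 with voom, other scalings, no filter, other TPM minimums and leaving out each tumor were alternatives. Dixon's ratio was taken on log2(TPM + 1) for members at 1 TPM or more on average. Nothing says that tumors were sampled beyond 1 library each, so errors hold biological and technical spread together.

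Named members were the 12 clustered genes of highest mean, all others at 1 TPM or more on average, the 5 of widest range, those called in either edgeR fit, those with a tumor apart, members at 0 or behind a count of 5 or fewer and, from each list, genes of high mean. *Slbp*, *Npat*, *E2f2*, *Ep400*, *H1f1*, *H1f3*, *H1f4*, *H1f5*, *H1f6*, *H1f7*, *H1f9*, *H2ac6*, *H2bc6*, *H2bc26*, *H4c11*, *Macroh2a2*, *Csf3r* and *Mpo* were named outside that rule, after their values were seen. The members and lists were chosen with earlier results of these data known. TPM compares genes per length; its depth limit is the count behind it, and counts cover counting error only.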

Additional observations from a re-analysis of the deposited data

Results flagged for a closer look

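In 9 of 15 members at 5 TPM or more on average, and in the variant sum, the highest tumor lay apart from the other 5, and each time it was M1T1. The value is the gap to the nearest tumor as a share of the whole range of log2(TPM + 1), and all lay above Dixon's critical value for 6 tumors. Among core replacement variants it was 0.901 for *H3f3a*, 0.665 for *H3f3b*, 0.7 for *H2az1*, 0.967 for *H2az2* and 0.856 for *H2ax*. Among linker histones it was 0.676 for *H1f0* and 0.75 for *H1f10*, and among clustered genes 0.774 for *H2bc27* and 0.894 for *H2ac25*. For the summed TPM of variant members it was 0.865. Chance marks about 1 in 20 such groups, and 38.8% of all genes at 1 TPM or more on average were marked in these libraries, so that the members share the mark with many other genes.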

How the results depend on the processing

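Of the planned and added settings, those without M1T1 under another tool or scaling, Dixon's ratio over 5 tumors and the comparisons by overlap were chosen after seeing the data. The count of genes that differed between the mice, 0 with edgeR over 6 tumors, was 202 with DESeq2 and ranged from 0 to 168 when 1 tumor was left out, 168 being the count without M1T1; without that tumor it was 1369 with DESeq2, 477 with limma-voom and 151 with library size alone. For histone members the counts were 4 with DESeq2, 0 to 1 leaving out 1 tumor, and 11, 3 and 1 in the same 3 fits, and for the listed genes 0 to 1, then 3, 1 and 1. Clustered members at the minimum of 1 TPM numbered 13, against 48 at 0.1 TPM and 6 at 5 TPM. Members with a tumor apart fell from 11 to 0 over 5 tumors. Members highest in M1T1 fell from 17 of 22 to 11 of 22 in TMM-scaled counts. Among the 15 members at 5 TPM or more on average, 10 were highest there in TPM. Members higher in every tumor of mouse 2 rose from 3 to 8 against M1T2 and M1T3 alone. Some directions depended on a setting or a tumor. With library size alone the log2 difference of *H4c9* was -0.23 and that of *H2az1* -0.50. *H2az1* ranged from -0.08 to 0.99 leaving out 1 tumor, and was 0 without M1T3. *H3f3a* ranged from -1.09 to 0.61 and was positive, 0.61, without M1T1, where DESeq2 gave 0.61, limma-voom 0.60 and library size alone 0.34. The cause was not tested. *H2ac19* (1.59 to 2.69), *H2bc4* (1.26 to 1.61), *H1f2* (1.59 to 2.04) and *H4c8* (2.26 to 3.34) stayed positive leaving out each tumor. With the tumor number as a replicate block 0 genes and 0 members were called, as without it. The correlations between the deviations of same-numbered tumors from their mouse's mean were 0.025, -0.043 and 0.049, and 2 of 6 tumors correlated best with their own number, so the numbers were taken as names. Low counts limit *H4c12*, *H4c18* and *H2bc8* most, and shared sequence limits the clustered class: a median of 58.7% of a gene's 31-base stretches also occur in other genes, with 38 of 62 genes over 50%, against a median of 8.86% for variants at 1 TPM.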
